A study of Mus musculus with 6 samples.

Results

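Imprinted genes are expressed mainly from the copy inherited from one parent, and the 10 examined here are *Meg3*, *Rian*, *Mirg*, *Dlk1*, *H19*, *Igf2*, *Igf2r*, *Grb10*, *Cdkn1c* and *Peg3*. They were taken by symbol from the deposited table of 54446 genes and joined to the read counts by Ensembl identifier. All 10 were found, and 7 of them had enough reads to be tested. The study compared the liver transcriptome of 3 wild-type (WT) and 3 *Fmo5*-/- mice, in which the gene for flavin-containing monooxygenase 5 is disrupted in the whole animal. All were males on a C57BL/6 background, of the substrain C57BL/6J and 32 weeks of age per the published description. Each library was made from the liver of 1 mouse.

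Imprinting is set in the germ line by DNA methylation of control regions, and most imprinted genes lie in clusters that share such a region. Many of these genes act on growth before birth, and in mouse liver several of them are silenced in the weeks after birth. *Igf2*, *Dlk1* and *Peg3* are expressed from the paternal chromosome, whereas *H19*, *Meg3*, *Rian*, *Mirg*, *Igf2r*, *Cdkn1c* and, in most tissues, *Grb10* are expressed from the maternal one. The libraries do not separate the parental copies, so each value is the sum of both.

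*Fmo5* itself gave 39808, 37405 and 30240 normalized read counts (reads scaled to a common library size) in the WT libraries and 1071, 1102 and 1194 in the *Fmo5*-/- libraries, and the groups did not overlap. Between 44886286 and 52338675 reads were counted on genes per library. The share of reads in no annotated gene was 6.86% to 7.02% in WT and 6.96%, 8.63% and 8.28% in *Fmo5*-/- replicates 1, 2 and 3. Of 6 hepatocyte markers 0 passed by edgeR or DESeq2, with 0 at an unadjusted p under 0.05, and *Alb*, which encodes albumin, ranged from 4085760 to 5404120 normalized counts. Of the 16734 genes tested, 229 (1.37%) passed an adjusted p of 0.05 by the quasi-likelihood test of edgeR, 113 (0.675%) higher and 116 (0.693%) lower in *Fmo5*-/- mice. DESeq2 called 1395 (8.96%) of the 15571 genes to which it gave an adjusted p. For 4578 (27.4%) of the tested genes, the 3 WT and the 3 *Fmo5*-/- libraries did not overlap, and 3647 (21.8%) had an unadjusted p under 0.05 by edgeR.

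Of the 7 imprinted genes tested, *Meg3* and *Rian* passed the threshold, and both were higher in *Fmo5*-/- mice. *Mirg*, the next gene on the same chromosome, had 6.16 times the WT level but did not pass. Its log2 fold change was 2.62 with all libraries and 1.97 without *Fmo5*-/- replicate 2. *Peg3* and *Cdkn1c* were lower in all 3 *Fmo5*-/- libraries than in any WT library without passing, and *Igf2r* and *Grb10* overlapped between genotypes. *Dlk1*, *H19* and *Igf2* had at most 9 reads in any library and were not tested. The genotypes did not overlap for *Meg3*, *Rian*, *Cdkn1c* and *Peg3*, beside 27.4% of all tested genes, nor for *Mirg*, which was tested only because its reads in the *Fmo5*-/- libraries passed the filter.

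**Figure D1:**
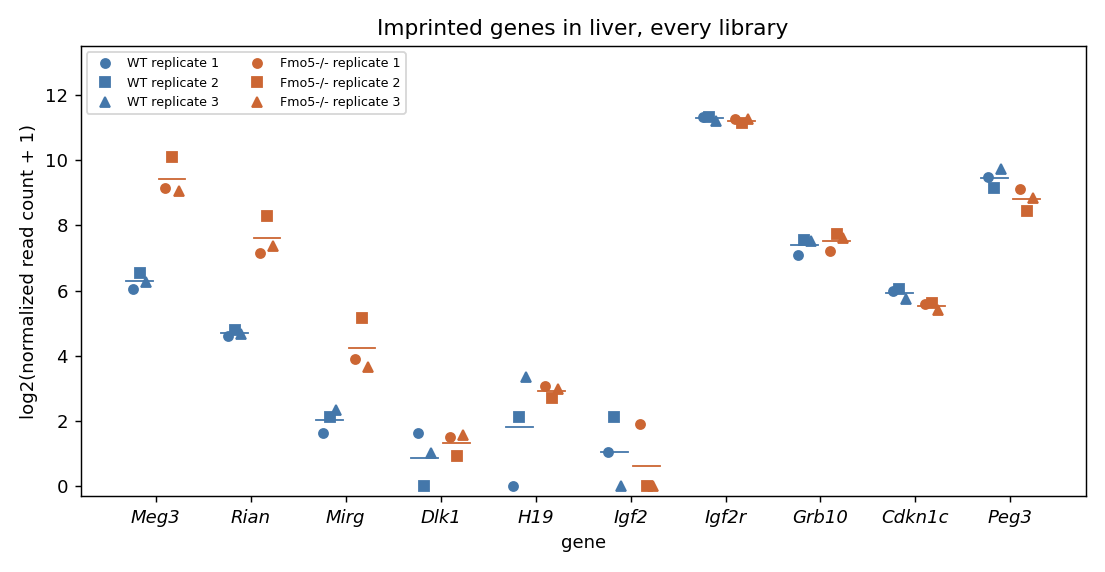
Normalized read counts of the 10 imprinted genes, as log2(count + 1) on the vertical axis, in each of the 3 WT (blue) and 3 *Fmo5*-/- (orange) libraries, with the shape giving the replicate and the line the group mean. *Meg3*, *Rian* and *Mirg* are higher in all *Fmo5*-/- libraries, and *Cdkn1c* and *Peg3* are lower in all of them by a smaller margin. *Dlk1*, *H19* and *Igf2* are low and overlap between genotypes. *Grb10* also overlaps, as does *Igf2r* at a high level.

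*Meg3*, *Rian* and *Mirg* are non-coding RNAs of the *Dlk1*-*Meg3* domain of chromosome 12. They lie in one direction one after the other, are thought to be made at least in part as one long maternal transcript, and carry clusters of small nucleolar RNAs and microRNAs. *Meg3* (ENSMUSG00000021268.17, GRCm38 chr12:109541001-109571726, plus strand) is a long non-coding RNA known to raise p53 activity. Its normalized counts were 65.7, 92.6 and 75.7 in WT and 565.5, 1090.4 and 527.2 in *Fmo5*-/- mice. The lowest *Fmo5*-/- library lay far above the highest WT library, and *Fmo5*-/- replicate 2 stood above the other two. The mean was 78.0 ± 13.6 (SD, n = 3) in WT and 728 ± 315 (SD, n = 3) in *Fmo5*-/- liver, a 9.33-fold difference with a 95% confidence interval of 5.48 to 15.9. The log2 fold change of *Meg3* was 3.22 (SE 0.33, adjusted p = 0.00977 by edgeR), and it ranked 9 among all tested genes by log2 fold change. The call was lost without WT replicate 1 (adjusted p = 0.0594 by edgeR, log2 fold change 3.12) and without WT replicate 2 (adjusted p = 0.05004 by edgeR, log2 fold change 3.36). DESeq2 gave *Meg3* an adjusted p of 2.23e-29.

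*Rian* (ENSMUSG00000097451.10, chr12:109603940-109661716, plus strand), the host of a large cluster of small nucleolar RNAs, had 23.3, 26.8 and 24.5 normalized counts in WT and 142.5, 313.0 and 164.0 in *Fmo5*-/- mice. As for *Meg3*, the groups were far apart and *Fmo5*-/- replicate 2 was the highest. The means were 24.9 ± 1.77 (SD, n = 3) and 206 ± 92.9 (SD, n = 3), an 8.28-fold difference with a 95% interval of 4.88 to 14.04. Its log2 fold change was 3.05 (SE 0.34, adjusted p = 0.00675 by edgeR). *Rian* stayed past the threshold in each of the 6 fits that left out 1 library, with an adjusted p by edgeR between 0.0018 and 0.0384.

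*Mirg* (ENSMUSG00000097391.8, chr12:109729764-109749460, plus strand), which hosts microRNAs, was counted at 2, 3 and 4 reads in WT and at 15, 38 and 12 reads in *Fmo5*-/- libraries. Normalized, these were 2.12, 3.35 and 4.09 against 13.97, 34.9 and 11.8, with no overlap and again with *Fmo5*-/- replicate 2 on top. The sums of 9 and 65 reads gave a ratio of 6.40 between genotypes after scaling, with an exact 95% binomial interval of 3.17 to 14.6 that covers counting error only. The log2 fold change was 2.62 (SE 0.58, adjusted p = 0.0617 by edgeR). *Mirg* passed the filter on low counts only through the *Fmo5*-/- libraries, so its p-values are not those of a gene kept regardless of genotype. Without *Fmo5*-/- replicate 3 the adjusted p of *Mirg* by edgeR was 0.0265, and without the filter on low counts it was 3.3e-05. *Mirg* did not pass in any other fit that left out 1 library, with an adjusted p by edgeR between 0.0975 and 0.179. Its log2 fold change was lowest without *Fmo5*-/- replicate 2, at 1.97 (adjusted p = 0.130 by edgeR). DESeq2 gave *Mirg* no adjusted p.

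The proportions of the 3 RNAs were compared in each library. For each 100 *Meg3* reads, *Rian* had 35.5, 28.9 and 32.4 reads in WT and 25.2, 28.7 and 31.1 reads in *Fmo5*-/- mice. These values overlapped (32.3 ± 3.29 against 28.3 ± 2.96, SD, n = 3 each, p = 0.2, exact two-sided permutation test). *Mirg* had 3.23, 3.61 and 5.41 reads for each 100 *Meg3* reads in WT and 2.47, 3.20 and 2.23 in *Fmo5*-/- mice. Here the groups did not overlap, and the exact two-sided permutation test gave p = 0.1, the smallest p that 3 against 3 libraries allow. With 3 libraries a group neither ratio could have passed a threshold of 0.05. The WT ratio of *Mirg* rests on 9 reads and has an exact 95% interval of 1.85 to 7.95, which holds the *Fmo5*-/- ratio of 2.79 (2.14 to 3.57).

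**Figure D2:**
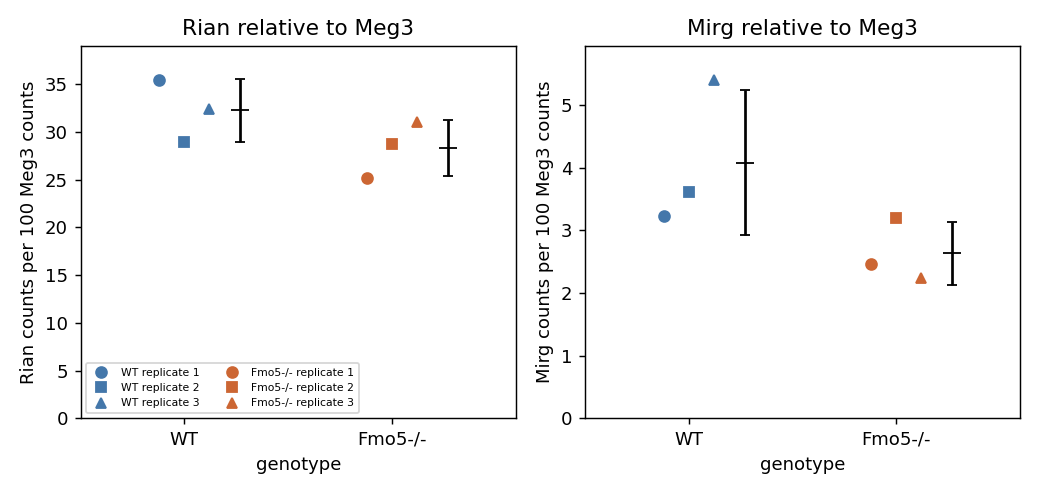
Reads of *Rian* (left) and *Mirg* (right) for each 100 reads of *Meg3*, in each WT (blue) and *Fmo5*-/- (orange) library, with the mean and SD of each group in black. *Rian* lies between 25.2 and 35.5 in all libraries, and *Mirg* between 2.23 and 5.41.

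The RefSeq promoter windows (250 bases before to 50 after a gene's start) hold 13 entries for 8 of the 10 genes, on build GRCm38.p6. They were searched on both strands for TGACGTCA, the binding motif of CREB, for TGCCGC, the core motif of the imprint-protecting factor ZFP57, and for TATAAA. Of all 32851 windows, 1.79% hold the first motif, 11.6% the second and 13.6% the third. The windows of *Meg3*, *Rian* and *Peg3* are shown because *Meg3* and *Peg3* are the 2 genes with the first motif and because *Rian* moved with *Meg3*. Capitals mark matches to any of the 3 motifs.
*Meg3* (chr12:109540746-109541045, plus strand): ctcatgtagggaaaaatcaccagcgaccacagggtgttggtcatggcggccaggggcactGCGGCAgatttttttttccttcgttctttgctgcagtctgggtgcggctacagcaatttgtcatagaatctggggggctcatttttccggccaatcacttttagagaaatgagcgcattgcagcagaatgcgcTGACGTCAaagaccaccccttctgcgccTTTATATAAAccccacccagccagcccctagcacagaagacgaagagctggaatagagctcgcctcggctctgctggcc
*Rian* (chr12:109603695-109603994, plus strand): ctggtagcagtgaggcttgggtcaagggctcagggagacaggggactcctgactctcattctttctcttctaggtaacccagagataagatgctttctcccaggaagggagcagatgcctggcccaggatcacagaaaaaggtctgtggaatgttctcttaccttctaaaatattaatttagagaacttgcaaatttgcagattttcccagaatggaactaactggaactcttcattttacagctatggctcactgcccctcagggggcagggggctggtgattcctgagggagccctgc
*Peg3* (chr7:6730370-6730669, minus strand): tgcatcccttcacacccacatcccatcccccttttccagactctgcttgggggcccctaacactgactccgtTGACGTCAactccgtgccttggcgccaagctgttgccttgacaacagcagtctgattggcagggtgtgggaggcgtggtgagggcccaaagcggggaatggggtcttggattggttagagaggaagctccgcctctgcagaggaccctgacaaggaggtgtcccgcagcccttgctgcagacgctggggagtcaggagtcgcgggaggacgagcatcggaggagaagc
The *Meg3* window holds TGACGTCA from 57 bases before the start, TGCCGC on the other strand from 190 bases before it, and TATAAA on each strand, overlapping, from 29 and 25 bases before it. The *Rian* window holds none of the 3 motifs and 0 CG dinucleotides, against 13 in the *Meg3* window and a median of 7 over all windows. In the *Peg3* window, TGACGTCA begins 178 bases before the start, and there are 13 CG dinucleotides. The windows of *Dlk1* and *Igf2r* hold none of the motifs. Neither do a second window of *Meg3* and the window of *Mirg*, but both lie inside the gene bodies given here and so do not cover those starts. TGCCGC also occurs in 1 of 4 windows of *Igf2* and 1 of 2 windows of *Grb10*, which likewise lie inside the gene bodies given here. The *Igf2r* window and this *Grb10* window have 34 and 45 CG dinucleotides, numbers reached by 7.73% and 1.93% of all windows.

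Inside the bodies of *Meg3*, *Rian* and *Mirg*, on their strand, RefSeq places 35 mature microRNAs from 19 hairpins. *Meg3* carries 3, *Rian* 6 and *Mirg* 26 of them. Only 1 seed (bases 2 to 8, the part that pairs with targets) occurs more than once, in miR-453 and miR-496a-5p of *Mirg*. The microRNAs of *Meg3* and *Rian*, the RNAs that passed the test, and this pair are shown with the seed in capitals.
miR-1906: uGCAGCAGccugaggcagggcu
miR-770-5p: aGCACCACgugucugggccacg
miR-770-3p: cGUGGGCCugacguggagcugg
miR-341-5p: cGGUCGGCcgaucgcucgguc
miR-341-3p: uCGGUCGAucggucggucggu
miR-1188-5p: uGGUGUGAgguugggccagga
miR-1188-3p: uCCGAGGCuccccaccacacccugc
miR-370-5p: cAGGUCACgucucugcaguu
miR-370-3p: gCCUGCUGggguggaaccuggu
miR-453: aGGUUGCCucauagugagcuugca
miR-496a-5p: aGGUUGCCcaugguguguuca
The first 3 lie in *Meg3*, the next 6 in *Rian* and the last 2 in *Mirg*. Mature microRNAs are too short for an mRNA library and were not measured. Of the 88 other annotated genes on the plus strand between the start of *Meg3* and the end of *Mirg*, 59 are microRNA and 23 small nucleolar RNA genes, and 9 had any read. They summed to 3 reads in WT and 23 reads in *Fmo5*-/- libraries, of which 18 were in *Fmo5*-/- replicate 2. Many of these small genes lie in exons of the hosts, where a read that overlaps both is counted for neither, so their counts are partly set by the counting. In GENCODE vM21, 8.29% of the exon bases of *Meg3*, 3.42% of those of *Rian* and 5.03% of those of *Mirg* are shared with other genes. The 3 host RNAs together had 86, 110 and 102 reads in WT and 775, 1567 and 716 in *Fmo5*-/- libraries.

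The neighbours of *Meg3* on chromosome 12 had few reads or smaller differences. *Dlk1* (ENSMUSG00000040856.17, chr12:109452823-109463336, plus strand) encodes a transmembrane relative of the Notch ligands that is made by fetal liver, and is the paternally expressed partner of *Meg3*. It had 2, 0 and 1 reads in WT and 2, 1 and 2 reads in *Fmo5*-/- mice. The ratio of the sums was 1.48 with an exact 95% interval of 0.287 to 9.51, so a difference in *Dlk1* was not detectable at this depth. *Rtl1*, a paternally expressed gene of retrotransposon origin between *Meg3* and *Rian*, had 0.00, 1.12 and 1.02 normalized counts in WT and 4.66, 7.34 and 0.98 in *Fmo5*-/- mice. *Rtl1* lies on the minus strand, opposite *Meg3* and *Rian*, and its unstranded reads cannot be assigned to either strand. *Dio3*, the thyroid hormone-inactivating deiodinase at the far end of the domain, stayed at or under 1.12 in WT and lay between 2.75 and 3.93 in *Fmo5*-/- mice, and *Begain*, beside *Dlk1*, was above 0 in 1 library of each genotype. None of these had enough reads to be tested.

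Within 1 Mb of the *Meg3* start, a window chosen after the values were seen, 13 other genes were tested. Their median log2 fold change was 0.12, beside 0.01 over all tested genes, and 10 of the 13 lay within 0.5 of 0. *Evl*, which encodes an actin regulator and was also picked out after its values were seen, passed the threshold at the far edge of the window. It had 160, 146 and 124 normalized counts in WT and 355, 451 and 236 in *Fmo5*-/- mice, a log2 fold change of 1.28 (SE 0.23, adjusted p = 0.0447 by edgeR). *Dio3os*, the antisense RNA of *Dio3*, had 11.6, 8.93 and 22.5 counts in WT and 31.7, 26.6 and 53.0 in *Fmo5*-/- mice (log2 fold change 1.35, SE 0.41, adjusted p = 0.108 by edgeR). Like *Mirg*, *Dio3os* passed the filter on low counts only through the *Fmo5*-/- libraries. *Slc25a47*, a mitochondrial carrier of hepatocytes, had 20186, 28825 and 19477 counts in WT and 18028, 13855 and 15740 in *Fmo5*-/- mice, without overlap (log2 fold change -0.52, SE 0.16, adjusted p = 0.120 by edgeR and 0.0198 by DESeq2). DESeq2 called *Evl* and *Slc25a47* among the 13, beside 8.96% of all genes to which it gave an adjusted p. *Yy1*, *Wars*, *Wdr25* and *Ppp2r5c* had log2 fold changes of -0.09, -0.06, -0.01 and -0.15 and did not pass.

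**Figure D3:**
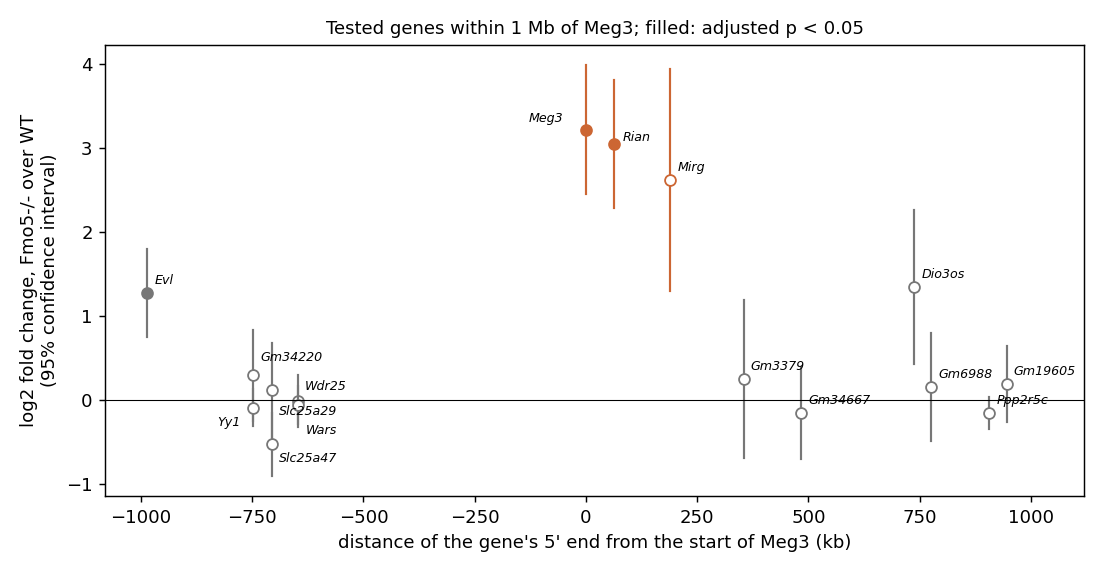
Log2 fold change, *Fmo5*-/- over WT, with its 95% confidence interval, for the 16 tested genes within 1 Mb of *Meg3*, against the distance in kb of each gene's 5′ end from the *Meg3* start; filled points passed the adjusted p. *Meg3*, *Rian* and *Mirg* (orange) lie between 2.62 and 3.22, and of the 13 others 10 lie within 0.5 of 0.

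*H19* and *Igf2* are the paired genes of the domain on distal chromosome 7, a maternally expressed non-coding RNA and a paternally expressed fetal growth factor. Both are abundant in fetal liver. *H19* (ENSMUSG00000000031.16, chr7:142575529-142578143, minus strand) had 0, 3 and 9 reads in WT and 8, 6 and 7 reads in *Fmo5*-/- mice. WT libraries spread from none to more than any *Fmo5*-/- library, and the ratio of the sums was 1.55 with an exact 95% interval of 0.728 to 3.46. *Igf2* (ENSMUSG00000048583.16, chr7:142650766-142666816, minus strand) had 1, 3 and 0 reads in WT and 3, 0 and 0 reads in *Fmo5*-/- mice. In these libraries a count of 0 allows up to 3 reads, which is 2.75 to 3.35 normalized counts. In GENCODE vM21, 64.5% of the exon bases of *Igf2* are shared with another gene, and reads there would be assigned to neither. The release that the authors counted with is not given in the sources used here, so the bases shared there may differ. *Ins2*, its neighbour, had no read in any library.

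*Igf2r* encodes the receptor that takes up insulin-like growth factor 2 and carries lysosomal enzymes, and it is maternally expressed in adult mouse tissues. At ENSMUSG00000023830.14 (chr17:12682406-12769664, minus strand) the normalized counts were 2563, 2572 and 2334 in WT and 2458, 2235 and 2433 in *Fmo5*-/- mice. The groups overlapped, with a log2 fold change of -0.07 (SE 0.08, adjusted p = 0.669 by edgeR). Its fold of 0.954 had a 95% interval of 0.842 to 1.08, which bounds any difference in *Igf2r* more closely than for the other 6 tested genes of the 10. *Airn*, the paternal antisense RNA that silences *Igf2r* on that chromosome, had 47.7, 46.9 and 58.3 counts in WT and 73.6, 106.5 and 53.0 in *Fmo5*-/- mice (log2 fold change 0.61, SE 0.28, adjusted p = 0.243 by edgeR). *Airn* starts inside the body of *Igf2r*, so unstranded reads from introns of *Igf2r* there could be counted for *Airn*. *Slc22a3*, an organic cation transporter of the cluster, had 273, 363 and 242 counts in WT and 213, 226 and 181 in *Fmo5*-/- mice, without overlap (log2 fold change -0.50, SE 0.18, adjusted p = 0.147 by edgeR). *Slc22a2* was at most at 1.86 counts in any library.

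*Grb10* encodes an adaptor that inhibits signalling of the insulin and insulin-like growth factor receptors. At ENSMUSG00000020176.17 (chr11:11930508-12038683, minus strand) it had 134, 189 and 181 normalized counts in WT and 149, 212 and 194 in *Fmo5*-/- mice. The groups overlapped almost wholly, and the 95% interval of the fold was 0.815 to 1.49 (log2 fold change 0.14, SE 0.19, adjusted p = 0.721 by edgeR). Its neighbour *Ddc*, the aromatic amino acid decarboxylase, had a log2 fold change of -0.22 (adjusted p = 0.191 by edgeR), and *Cobl*, an actin nucleator, one of 0.01 (adjusted p = 0.977 by edgeR).

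*Cdkn1c* encodes p57, an inhibitor of cyclin-dependent kinases that is maternally expressed under the control of the non-coding RNA *Kcnq1ot1*. At ENSMUSG00000037664.13 (chr7:143458339-143461050, minus strand) it had 62.5, 64.7 and 52.1 normalized counts in WT and 47.5, 48.6 and 41.2 in *Fmo5*-/- mice. All *Fmo5*-/- values lay under the WT values by a small margin, and the difference did not pass (log2 fold change -0.38, SE 0.21, adjusted p = 0.333 by edgeR). The antisense gene *Gm44732* shares 625 of its 2039 exon bases in GENCODE vM21, where unstranded reads would be assigned to neither gene. *Kcnq1ot1* had 423, 545 and 424 counts in WT and 498, 503 and 502 in *Fmo5*-/- mice, with overlap (log2 fold change 0.11, SE 0.12, adjusted p = 0.636 by edgeR). *Kcnq1ot1* lies inside the body of *Kcnq1* on the other strand, so unstranded reads from introns of *Kcnq1* there would be counted for it. Of the 10 other genes of this domain, 9 were tested and 0 passed by edgeR or DESeq2. Their log2 fold changes ran from -0.18 (*Cd81*) to 0.83 (*Tspan32*), and 1 had an unadjusted p under 0.05, beside 21.8% of all tested genes. *Phlda2*, a maternally expressed growth restrainer of placenta, had 3.35 to 11.2 counts in WT and 11.2 to 19.3 in *Fmo5*-/- mice.

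*Peg3* encodes a zinc finger protein and is paternally expressed. At ENSMUSG00000002265.16 (chr7:6703892-6730431, minus strand) it had 717, 564 and 844 normalized counts in WT and 549, 344 and 460 in *Fmo5*-/- mice. The lowest WT library lay just above the highest *Fmo5*-/- library. The means were 708 ± 140 (SD, n = 3) and 451 ± 103 (SD, n = 3), 1.57-fold lower in *Fmo5*-/- mice, with a log2 fold change of -0.65 (SE 0.20, 95% interval -1.10 to -0.20, adjusted p = 0.113 by edgeR). DESeq2 gave *Peg3* an adjusted p of 0.0149, and edgeR without the filter on low counts one of 7.33e-06. The other genes of its cluster were at or near 0, with *Zim3* and *Zfp264* without a read and *Usp29* and *Zim1* at most at 1.84 and 5.58 counts.

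Levels of the genes were compared per length, as RPKM, reads scaled for library size per kilobase of annotated exon. In WT liver *Igf2r* was highest at 5.48 ± 0.297 (SD, n = 3), then *Peg3* at 1.09 ± 0.216, *Cdkn1c* at 0.601 ± 0.0674, *Grb10* at 0.379 ± 0.0660 and *Meg3* at 0.0883 ± 0.0154, and the libraries of these neighbours did not overlap. *H19* (0.0349 ± 0.0388), *Rian* (0.0280 ± 0.00198), *Mirg* (0.00895 ± 0.00280), *Igf2* (0.00526 ± 0.00613) and *Dlk1* (0.00379 ± 0.00384) followed, and the range of *H19* overlapped those of *Meg3* and of all 4 lower genes. RPKM used all exon bases. In GENCODE vM21, 64.5% of those of *Igf2* and 30.7% of those of *Cdkn1c* are shared with other genes. The places of *Igf2* and *Cdkn1c* may therefore be too low. In *Fmo5*-/- liver the RPKM of *Meg3* was 0.824 ± 0.357 (SD, n = 3), and its libraries overlapped those of *Peg3* at 0.694 ± 0.158. *Rian* at 0.232 ± 0.104 reached the range of *Grb10* at 0.417 ± 0.0733. The coefficient of variation between *Fmo5*-/- libraries was 43.2% for *Meg3*, 45.0% for *Rian* and 63.1% for *Mirg*, beside a median of 11.1% over all tested genes. In WT it was 17.5%, 7.10% and 31.3%, beside a median of 11.2%. Counting error is part of these values and is large for *Mirg*, with 2 to 4 reads in WT and 12 to 38 in *Fmo5*-/- libraries. *Igf2r* varied by 5.41% and 5.15% in WT and *Fmo5*-/- mice.

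Other imprinted genes and genes of imprinted domains gave a background, though their imprinting in adult liver was not tested. Of 61 further imprinted genes or genes of these 6 domains, 43 were tested and 0 passed by edgeR in either direction. Of the 43, 9 had an unadjusted p under 0.05, beside 21.8% of all tested genes. DESeq2 called 2, beside 8.96% of all genes to which it gave an adjusted p. The median log2 fold change of the 43 genes was 0.03, with 23 above and 20 below 0 and a range of -0.50 to 0.97. *Sgce*, the paternally expressed epsilon-sarcoglycan gene, had 196, 182 and 370 counts in WT and 546, 456 and 467 in *Fmo5*-/- mice (log2 fold change 0.97, SE 0.26, adjusted p = 0.0923 by edgeR and 0.00223 by DESeq2). *Pon2*, a lactonase gene of the same cluster on chromosome 6, had 2755, 2552 and 2688 counts in WT and 2303, 2245 and 2102 in *Fmo5*-/- mice (log2 fold change -0.27, SE 0.08, adjusted p = 0.0950 by edgeR and 0.0466 by DESeq2). *Ndn*, which encodes necdin, had 24.4 to 42.9 counts in WT and 38.2 to 63.3 in *Fmo5*-/- mice (log2 fold change 0.81, adjusted p = 0.177 by edgeR).

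**Figure D4:**
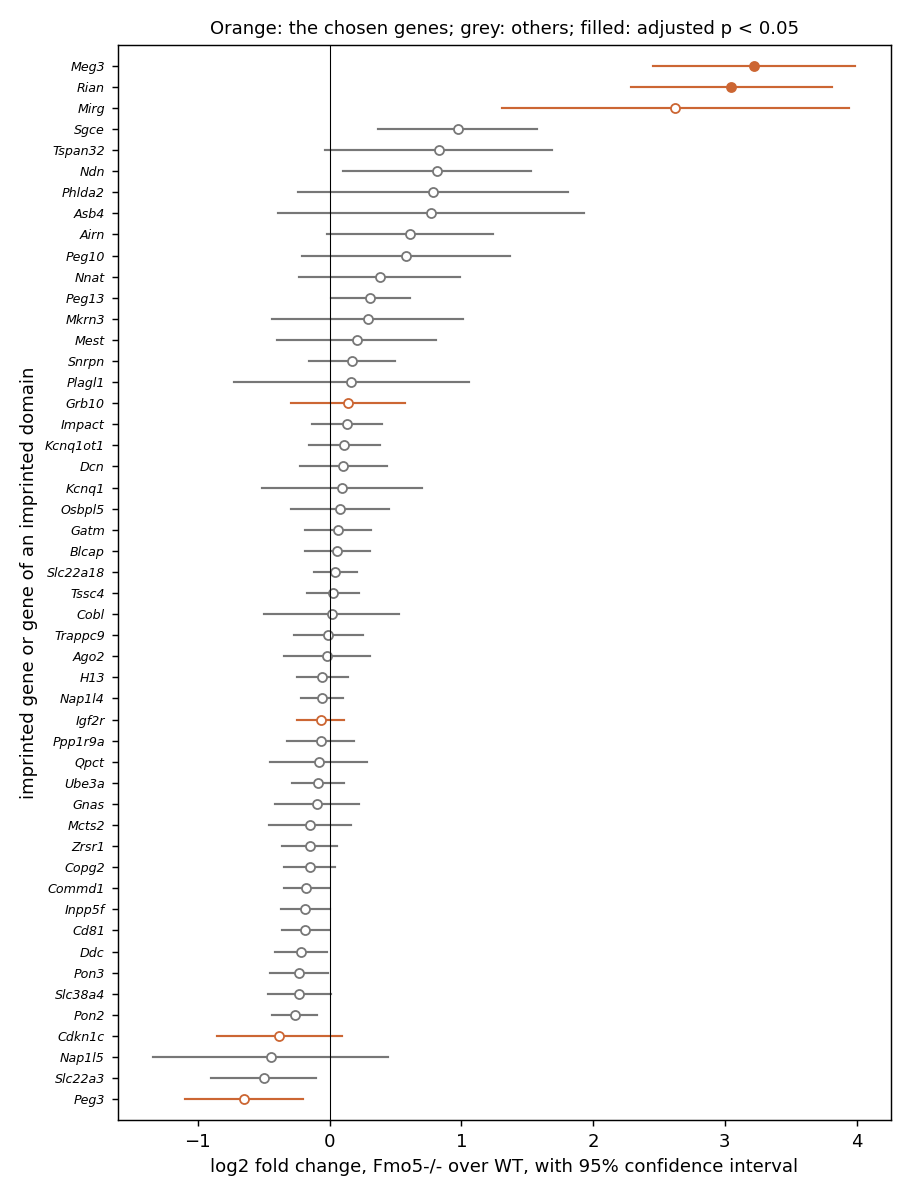
Log2 fold change, *Fmo5*-/- over WT, with 95% confidence intervals, for the 7 tested genes of the 10 (orange) and the 43 other tested genes of imprinted lists (grey), one gene a row, with filled points for an adjusted p under 0.05. *Meg3* and *Rian* are the filled points, *Mirg* lies next to them, and the other genes span -0.65 to 0.97.

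Genes that act with these imprinted genes were also counted. Of 20 tested genes of insulin and insulin-like growth factor signalling, 1 passed, beside 1.37% of all tested genes. This was *Igfbp2*, which encodes a binding protein for these factors. It rose from 16239, 15302 and 17257 to 28145, 24223 and 27867 counts (log2 fold change 0.72, SE 0.10, adjusted p = 0.0151 by edgeR). The median of the list was 0.04, and *Igf1r* and *Grb7* had log2 fold changes of 0.41 and -0.23 without passing. Of 14 tested cyclin-dependent kinases, cyclins and kinase inhibitors, 0 passed by edgeR or DESeq2. Of the 14, 2 had an unadjusted p under 0.05, beside 21.8% of all tested genes. The 3 smallest p belonged to *Cdk6*, *Cdk1* and *Ccnd2* (log2 fold changes 0.35, 0.69 and 0.37). Of 8 tested fetal liver genes, 0 passed by either tool and 0 had an unadjusted p under 0.05, with *Igf2bp2*, *Afp* and *Zhx2* at 0.57, -0.34 and 0.09. *Afp*, the fetal albumin relative, had 201, 158 and 166 counts in WT and 145, 157 and 112 in *Fmo5*-/- mice.

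Among 12 tested genes that set, keep or remove DNA methylation or protect imprints, 0 passed by edgeR and 1 was called by DESeq2. An unadjusted p under 0.05 was found for 6 of them (*Dnmt3a*, *Dnmt3b*, *Setdb1*, *Uhrf1*, *Tet2* and *Tet3*), beside 21.8% of all tested genes. DESeq2 called 8.96% of all genes to which it gave an adjusted p. Of the 6 genes, *Uhrf1* passed the filter on low counts only through the *Fmo5*-/- libraries. *Tet2* and *Tet3* encode enzymes that start the removal of DNA methylation. The gene called by DESeq2 was *Dnmt3a*, a de novo DNA methyltransferase, with 1249, 1311 and 1417 counts in WT and 1846, 1772 and 1536 in *Fmo5*-/- mice (log2 fold change 0.37, SE 0.09, adjusted p = 0.0756 by edgeR and 0.0305 by DESeq2). *Setdb1*, a histone methyltransferase that works with ZFP57, and *Dnmt3b* had log2 fold changes of -0.25 and 0.59 (adjusted p = 0.129 and 0.130 by edgeR). The median of the list was 0.23. DNA methylation was not measured here.

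The pattern most like that of *Meg3* over the 6 libraries, by the root mean square difference of centred log2 CPM (reads scaled for library size), was that of *Rian* (0.18), and that of *Rian* was *Meg3*. After it came *Asic5*, a bile acid-sensitive ion channel, at 0.41 from *Meg3* and 0.37 from *Rian*. *Asic5* had 250, 277 and 202 counts in WT and 1631, 1671 and 1778 in *Fmo5*-/- mice, without the high *Fmo5*-/- replicate 2 of the imprinted RNAs. The next were the immunoglobulin gene *Ighg2c* (0.45) for *Meg3* and *Gm3608* (0.42) for *Rian*. *Mirg* was nearest to *Egr2* (0.21), *Slfn4* (0.22) and *Zbp1* (0.29), whose log2 fold changes were 2.08, 2.25 and 1.70. The log2 CPM include a prior count of 2, which narrows the differences of genes with few reads. This affects *Mirg*, with 2 to 4 reads in each WT library. *Peg3* was nearest to *Gpam* (0.07), *Gm2546* (0.10) and *Hist1h2bg* (0.12), and *Cdkn1c* to *Ldha*, *Ermp1* and *Acadm* (0.04 to 0.05). *Grb10* was nearest to *Carmn*, *Arhgef10* and *Fbln1* (0.05 to 0.07) and *Igf2r* to *Stim1*, *Sfmbt1* and *Ubr1* (each 0.02).

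Markers of Kupffer cells, the macrophages of the liver, were also at higher levels in the *Fmo5*-/- libraries. All 6 had a positive log2 fold change, and 1 passed by edgeR and 5 by DESeq2. Over all genes, 1.37% of those tested passed by edgeR, and 8.96% of those given an adjusted p by DESeq2. The summed level of the 6 markers was 7356 to 8754 normalized counts in WT and 21603, 20657 and 11681 in *Fmo5*-/- replicates 1, 2 and 3. *Clec4f*, which passed, had 3787, 3768 and 3140 counts in WT and 5907, 6327 and 5085 in *Fmo5*-/- mice (log2 fold change 0.70, SE 0.11, adjusted p = 0.0275 by edgeR). *Marco*, a scavenger receptor, had 721, 468 and 790 counts in WT and 4989, 3710 and 676 in *Fmo5*-/- mice. *Cd5l*, a secreted macrophage protein, had 2949, 2918 and 2217 counts in WT and 7129, 7884 and 4277 in *Fmo5*-/- mice (adjusted p = 0.0564 by edgeR). *Timd4* had 232, 266 and 221 counts in WT and 671, 459 and 284 in *Fmo5*-/- mice, and *Vsig4* had 650.2, 719 and 562 in WT and 1449.5, 1282 and 814 in *Fmo5*-/- mice. *Adgre1* had 414, 530.0 and 426 counts in WT and 1457, 995 and 546 in *Fmo5*-/- mice. The genotypes did not overlap for 5 of the 6 markers, beside 27.4% of all tested genes, and overlapped for *Marco*. *Clec4f* and *Cd5l* were highest in *Fmo5*-/- replicate 2, as *Meg3*, *Rian* and *Mirg* were, and the other 4 in *Fmo5*-/- replicate 1. The summed stellate and mesothelial markers were also highest in *Fmo5*-/- replicate 2, at 14443 and 399 counts against at most 12454 and 345 in any other library. The part of these cell types in the level of the 3 RNAs was not tested, and in whole liver more cells of a type cannot be told apart from more RNA in each cell. Of stellate (7), endothelial (6), cholangiocyte (6) and mesothelial (4) markers, 0 passed by edgeR or DESeq2. Of these markers, 1, 2, 0 and 0 had an unadjusted p under 0.05, beside 21.8% of all tested genes. Their summed levels overlapped between genotypes, at 11378 to 12289 against 11678 to 14443 for stellate cells and 7417 to 8615 against 7918 to 8340 for endothelial cells. Of tissues that could adhere to liver, the adrenal list summed to 151 to 241 counts in WT and 153 to 182 in *Fmo5*-/- libraries. *Star* made up 125 to 152 of these in every library and *Cyp21a1* had 116 in WT replicate 2, while *Cyp11b1* and *Chga* had no read. The pancreas and muscle lists summed to at most 2.75 and 6.43 counts in any library. Fat markers were highest in WT replicate 1, with a sum of 94.3 counts against at most 15.6 in the others.

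**Figure D5:**
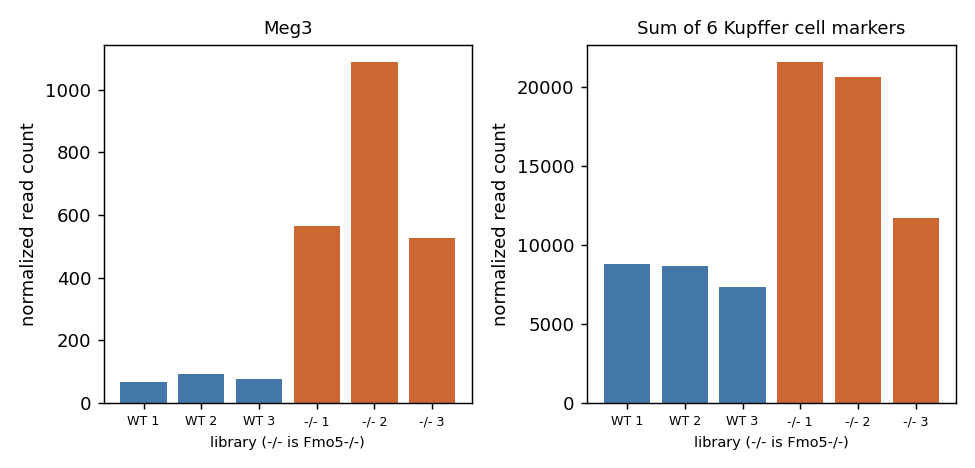
Normalized read counts of *Meg3* (left) and of 6 Kupffer cell markers summed (right) in each library, in 3 WT (blue) and 3 *Fmo5*-/- (orange) mice, on axes from 0. *Meg3* is at 527 or more in each *Fmo5*-/- library, and the summed markers at 11681 or more, both above all WT libraries.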

How the data were processed

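RNA was sequenced from the liver of 3 WT and 3 *Fmo5*-/- mice, as single reads of mRNA libraries. The authors clipped adapters, mapped reads to mm10 with STAR 2.6.0c and deposited the counts of reads per gene for each library. The libraries do not mark strand (49.9% to 50.1% of reads on one strand), so the counts of both strands were used, in which a read that overlaps 2 genes goes to neither. The authors also deposited a table whose signal columns hold the counts divided by DESeq2 size factors, and whose other columns hold their own fold changes, standard errors and p-values, none of which was used. Symbols came from that table and positions from GENCODE vM21 (53229 of 54446 versioned identifiers matched).

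Genes were kept by filterByExpr (minimum count 10), scaled by TMM and compared between genotypes with the robust quasi-likelihood test of edgeR 4.0.16 in R 4.3.3, with Benjamini-Hochberg adjustment over 16734 genes and a threshold of 0.05 (DESeq2 1.42.0 as an alternative). The limit of 500 on the mean count that the study set was an alternative only. The code was tested on simulated data. A standard error is the log2 fold change over the square root of F. Each library is 1 mouse. Replicate numbers follow the order of the records. The 10 genes and all lists were chosen with earlier results of these data known. Named were the 10 genes, the genes of their domains, of the lists of other imprinted, insulin signalling, cell cycle, fetal liver and methylation genes those that passed and the 3 with the smallest p, and for each of the 7 tested genes the 3 nearest patterns. Other genes named, among them cell type markers, neighbours of *Meg3*, *Tet2*, *Tet3* and *Uhrf1*, were chosen after their values were seen. Sequences are from RefSeq (GRCm38.p6). Reads carry no molecular identifiers, so counting intervals cover counting error only.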

Additional observations from a re-analysis of the deposited data

How the results depend on the processing

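All 7 tested genes kept their direction in every alternative that could be run. With no filter on low counts, 4 of the imprinted genes (*Meg3*, *Rian*, *Mirg*, *Peg3*) were called. So were 2 of the other imprinted or domain genes, and 1989 genes in all. With a mean count of 500 required before the fit these counts were 0, 0 and 53, since *Meg3* and *Rian* then did not enter it. DESeq2 called 3 of the imprinted genes (*Meg3*, *Rian*, *Peg3*), 2 of the other imprinted or domain genes and 1395 genes in all. Without 1 library, between 1 and 3 of the imprinted genes were called (1 without WT replicate 1 or 2, 3 without *Fmo5*-/- replicate 3). Between 0 and 1 of the other imprinted or domain genes were called, and between 31 and 763 of all genes. The count over all genes was 31 without *Fmo5*-/- replicate 1 and 763 without *Fmo5*-/- replicate 3. The log2 fold change of *Meg3* then ranged from 2.81 to 3.41 and that of *Rian* from 2.62 to 3.26, both lowest without *Fmo5*-/- replicate 2. The cause of these differences in counts was not tested. Scaling by RLE or by TMM without the 20 most abundant genes moved the median log2 fold change of all genes by less than 0.1 and changed none of the calls of the 7 genes. An alternative chosen after seeing the data, with reads shared by genes of opposite strands given to both, gave *Meg3* 3.25 and *Cdkn1c* -0.29 and changed no call among the 7 genes. Counts of one strand were not run because the libraries do not mark strand. No paired analysis was possible because the labels give the mice no replicate numbers. Depth limits *Dlk1*, *H19* and *Igf2*, with at most 9 reads a library, and *Mirg*, with 2 to 4 reads in each WT library.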

Other observations

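*Cdkn2a*, which encodes the cell cycle inhibitors p16 and p19Arf and was one of the listed kinase inhibitors, had too few reads to be tested and was picked out here after its values were seen. It had 3.18, 3.35 and 3.07 normalized counts in WT and 13.97, 42.2 and 8.84 in *Fmo5*-/- mice, with the highest value in replicate 2, the library in which *Meg3*, *Rian* and *Mirg* were also highest. *Peg12*, an imprinted gene left untested for low counts, had 6.70 to 9.202 counts in WT and 9.32 to 11.0 in *Fmo5*-/- mice. It was also picked out after its values were seen and had only 6 to 12 reads a library. Among all tested genes, 27.4% likewise did not overlap, so these values do not establish a difference in *Peg12*.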
